A study of Mus musculus with 19 samples.

Results

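The 7 genes described here, Hmgcs1, Idi1, Fdps, Fdft1, Sqle, Cyp51 and Dhcr7, encode enzymes of cholesterol synthesis and were taken by symbol from a count table of 50559 rows. All 7 were in the table, and all 7 were among the 15572 genes that passed the filter on low counts. They were followed in ribosome-bound mRNA of spinal cord cholinergic neurons over the day. The mice were labelled wild-type and carried ChAT-Cre, a Cre recombinase driven from the choline acetyltransferase locus, together with RiboTag, an allele that puts a hemagglutinin tag on a ribosomal protein wherever Cre is active. They were males of 10 weeks kept in a cycle of 12 h light and 12 h dark. Tissue was taken at Zeitgeber time (ZT, hours after lights on) 0, 4, 8, 12, 16 and 20, with 3 biological replicates each, every one from a spinal cord of its own, so that 18 immunoprecipitate libraries entered the time course. The tag marks motor neurons and every other cholinergic cell of the cord alike. A single library of pooled homogenate taken before the precipitation (the input) stood for the whole cord, and no untagged precipitate was analysed here.

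Cells make cholesterol from acetyl-CoA through the mevalonate pathway. Its early enzymes build isoprenoid units, which are joined to farnesyl pyrophosphate and then to squalene, and the late enzymes close squalene into rings and trim the sterol. When sterols in the endoplasmic reticulum are low, the transcription factor SREBP2, escorted by SCAP and held back by the INSIG proteins, leaves for the Golgi, is cleaved there and switches on these genes. In the adult nervous system lipoproteins do not cross from the blood, astrocytes and oligodendrocytes make much of the sterol, and neurons both make it and take it up on apolipoprotein E particles.

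The total count per immunoprecipitate lay between 6302150 and 22406844 and was 15239792 in the input, and levels are given as CPM, the count of a gene relative to the total count of its library after TMM scaling. Spread is the SD over 3 libraries unless another n is given. The defining markers of the labelled cells were present. Chat reached 39.1 CPM and Slc5a7, the choline transporter, 253 CPM on average, whereas Mbp and Gfap were 16.3-fold and 14.9-fold lower than in the input. Chat was 3.12-fold and Slc5a7 3.95-fold higher than in the input. Slc5a7 lay above the input in all 18 libraries and Chat in 17, with a lowest Chat value of 8.39 CPM against 12.7 CPM. Summed CPM of 7 cholinergic markers was 4260 to 5080 in the immunoprecipitates and 449 in the input. The sums were 1520 to 2900 against 20800 for oligodendrocytes, 133 to 205 against 2870 for astrocytes, 8.39 to 15.4 against 162 for microglia and 219 to 322 against 1200 for Schwann cells. They were 7.6 to 16 against 109 for endothelial cells, 248 to 347 against 804 for inhibitory neurons and 44.2 to 77.7 against 171 for excitatory neurons. Replicates 2 and 3 of ZT8 had the highest scores on the first principal component (42.6 and 29.7), whereas replicate 1 (5.03) lay among the other libraries (-27.9 to 19.9). Of the 7 cholinergic markers, 4 were called lower at ZT8 than at ZT0, Chat by 1.74 on the log2 scale (SE 0.434). Whether this moved with purity or with expression in the cells was not tested, and in bulk tissue fewer tagged cells cannot be told apart from less RNA per cell.

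The members lie on 6 chromosomes of the mouse genome (GRCm38, gene spans of GENCODE M21, all protein coding). Hmgcs1 spans chr13:119690379-119708260 on the plus strand and Idi1 chr13:8885501-8892451, also on the plus strand. Fdps lies at chr3:89093588-89101959 on the minus strand, Fdft1 at chr14:63145150-63179578 on the minus strand and Sqle at chr15:59315077-59331192 on the plus strand. Cyp51 lies at chr5:4081145-4104746 on the minus strand and Dhcr7 at chr7:143823145-143848410 on the plus strand. The upstream sequences of Hmgcs1 and Cyp51 are shown because the levels of these genes had the highest Pearson's r (0.77) among the members as deposited. Both are from RefSeq on GRCm38.p6, run 5′ to 3′ on the strand of the gene and end before the outermost start annotated in RefSeq or GENCODE. The stretch of Hmgcs1 is chr13:119690101-119690350 and that of Cyp51 chr5:4104747-4104947. Capitals mark, on either strand, CACCCCAC (a core that SREBP proteins can bind), CCAAT (bound by NF-Y) and GGGCGG (bound by Sp1). None of the marked letters overlap.
Hmgcs1: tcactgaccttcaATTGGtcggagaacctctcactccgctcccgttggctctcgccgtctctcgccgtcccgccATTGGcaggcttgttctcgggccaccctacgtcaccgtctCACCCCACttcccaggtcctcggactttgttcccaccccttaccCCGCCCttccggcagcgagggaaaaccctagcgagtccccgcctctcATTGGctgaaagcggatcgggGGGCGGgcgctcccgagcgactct
Cyp51: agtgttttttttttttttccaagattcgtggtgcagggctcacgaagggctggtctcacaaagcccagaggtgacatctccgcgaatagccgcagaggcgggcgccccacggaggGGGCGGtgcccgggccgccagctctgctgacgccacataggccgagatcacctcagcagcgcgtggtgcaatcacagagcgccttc

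RefSeq promoters were at hand for 4 of the 7 members (Hmgcs1, Idi1, Cyp51 and Dhcr7), and the 250 bases before the start were searched. CACCCCAC was in the window of Hmgcs1 alone, with its 5′ end 136 bases before the start, and in 2.58% of 32851 promoters of the same length. CCAAT was in at least 1 window of all 4 and in 33.8% of all promoters. In Cyp51 it lay 29 bases before the RefSeq start, within the 49 bases left out above. In Idi1 it lay 45 and 14 bases before the RefSeq start, and GGGCGG 69 bases before it. These matches fell within 105 bases that GENCODE places inside the gene. The Dhcr7 window with CCAAT (chr7:143829964-143830213) lay inside the gene span given above. GGGCGG was in at least 1 window of all 4, against 32.7% of all promoters. The clock factor motif CACGTG, held by 6.02% of all promoters, was in 1 of the 3 annotated windows of Dhcr7. That window (chr7:143823149-143823398) also lay inside the gene span of Dhcr7. A match is a description of letters and not a measured binding site.

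To compare levels between genes, CPM was divided by the length of the merged exons in kb (GENCODE M21). Fdps, which joins isoprenoid units to farnesyl pyrophosphate, had the highest level with 149 ± 11.4 CPM per kb (SD, n = 18). It was followed by Hmgcs1 with 98.7 ± 11.0, Fdft1 with 77.6 ± 6.35, Sqle with 38.1 ± 3.32 and Cyp51 with 34.1 ± 4.76 CPM per kb. Idi1 as deposited had 18.0 ± 4.53 and Dhcr7 15.9 ± 2.74 CPM per kb. The ranges over the 18 libraries overlapped between Hmgcs1 and Fdft1, between Sqle and Cyp51 and between Idi1 and Dhcr7, and did not overlap at the other steps of this order. With the reads of its pseudogene copy Idi1-ps1, Idi1 had 36.9 ± 7.63 CPM per kb (range 26.1 to 58.3), which overlapped with both Sqle (32.6 to 44.6) and Cyp51 (28.2 to 48.6).

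The first question of the time course was whether the members changed over the day. None of the 7 was called rhythmic at an adjusted p below 0.05, whether by a 24-h cosinor fitted to the counts (6.24% of all genes were called), by a test of any difference among the 6 time points (6.74%) or by JTK_Cycle, a rank test against cosine curves (0.0385%). At an unadjusted p below 0.05, the cosinor passed 3 members (Hmgcs1, Idi1 and Cyp51) against 26.7% of all genes and the time point test 1 (Cyp51) against 23.7%. Before the adjustment over genes, JTK_Cycle passed Hmgcs1 and Cyp51, against 15.8% of all genes. DESeq2 in place of edgeR called 2 members by the cosinor, Hmgcs1 and Cyp51, against 14.4% of all genes. The range between the highest and lowest time point mean had a median of 0.29 on the log2 scale over the members and 0.54 over all genes tested, and the median cosinor amplitude was 0.10 against 0.18. Idi1 lay above both medians of all genes (0.66 and 0.27), and neither comparison was tested or matched on expression level.

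**Figure D1:**
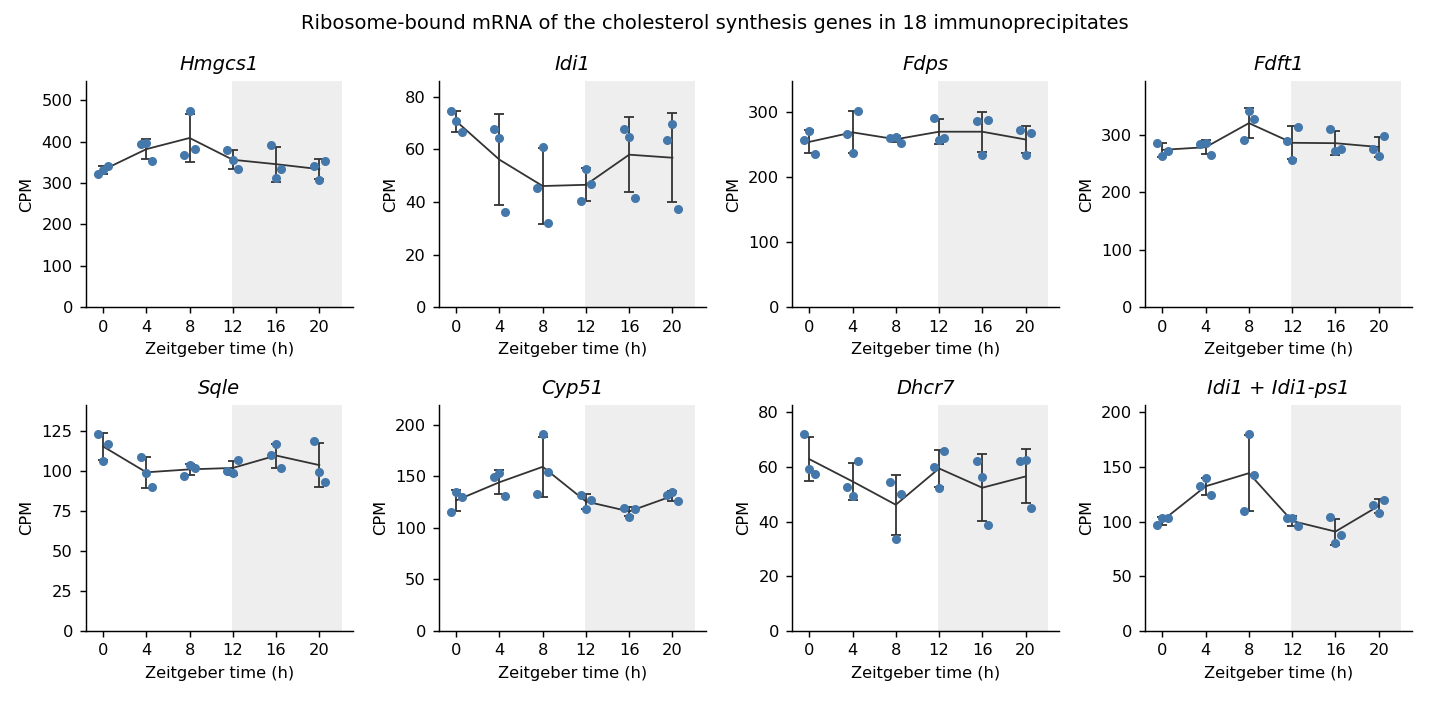
CPM of each gene (vertical axis, from 0) against Zeitgeber time in hours (horizontal axis). Points are the 3 libraries of a time point, lines join the means, bars are 1 SD and grey marks the dark phase. Cyp51 and the sum of Idi1 and Idi1-ps1 have their highest means at ZT8 (159 and 144 CPM) and their lowest at ZT16 (116 and 90.9 CPM), while Fdps stays between means of 254 and 270 CPM.

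Hmgcs1 makes HMG-CoA, the precursor of mevalonate. Its 3 libraries gave 322, 332 and 340 CPM at ZT0, 395, 397 and 353 CPM at ZT4, and 368, 475 and 383 CPM at ZT8. They gave 379, 355 and 334 CPM at ZT12, 392, 311 and 333 CPM at ZT16, and 342, 306 and 352 CPM at ZT20. Every ZT4 and ZT8 library lay above every ZT0 library, and replicate 2 of ZT8 was the highest of all 18. How many of all genes had time points so separated was not computed, here or for the members below. At ZT8 against ZT0, 31.6% of all genes had an unadjusted edgeR p below 0.05. Separation is therefore given as a description and not as a trait of the members. The means at ZT8 and ZT0 were 409 ± 58.2 and 332 ± 9.07 CPM. Their difference of 0.30 on the log2 scale (SE 0.107, 95% interval 0.09 to 0.51) had an adjusted p of 0.0568. It passed with DESeq2 (0.31, adjusted p = 0.0307) and without ZT8 replicate 1 (0.35, adjusted p = 0.0273), but was 0.17 (adjusted p = 0.372) without ZT8 replicate 2. The cosinor amplitude was 0.14 with a peak at ZT 7.68 (adjusted p = 0.093).

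Idi1 interconverts the isoprenoid building blocks, and its row cannot be read alone. The deposited values were not whole numbers in 19 of 19 libraries, and in each of them the fractions of Idi1 and of Idi1-ps1, an annotated pseudogene copy, added to a whole number within 0.011. Reads shared by both rows had thus been divided between them by the estimate. Idi1-ps1 took 300 to 2205 counts in the immunoprecipitates. Its share of the reads of both rows ranged from 20% to 77.6% there and was 8.48% in the input. The share was 22.6%, 31.7% and 35.2% in the ZT0 libraries and 58.7%, 66.1% and 77.6% in those of ZT8, with no overlap between the 2 time points. How much of Idi1-ps1 is transcribed from the copy itself was not tested.

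As deposited, Idi1 gave 74.8, 70.7 and 66.7 CPM at ZT0, 67.8, 64.4 and 36.1 CPM at ZT4, and 45.3, 60.9 and 32 CPM at ZT8. It gave 40.2, 52.6 and 46.8 CPM at ZT12, 67.7, 64.6 and 41.7 CPM at ZT16, and 63.4, 69.6 and 37.5 CPM at ZT20. The CV between replicates was 31% at ZT4, 31.4% at ZT8, 24.5% at ZT16 and 30% at ZT20, against 5.7% at ZT0 and 13.4% at ZT12. With the reads of Idi1-ps1 added, the libraries gave 96.6, 103 and 103 CPM at ZT0, 133, 140 and 124 CPM at ZT4, and 110, 180 and 143 CPM at ZT8. They gave 103, 103 and 95.6 CPM at ZT12, 104, 80.7 and 87.9 CPM at ZT16, and 115, 108 and 120 CPM at ZT20. In the summed row every ZT4 and ZT8 library lay above every ZT0 and ZT12 library. The direction of the daytime change thus depended on the row. Idi1 as deposited differed by -0.62 on the log2 scale at ZT8 against ZT0 (SE 0.249, adjusted p = 0.0907), whereas the summed row rose by 0.51 (SE 0.133, 1.43-fold, adjusted p = 0.0135). The deposited row was called lower with the oligodendrocyte score as a covariate (-0.73, adjusted p = 0.00992) and with a filter of 1 count (-0.63, adjusted p = 0.000119). Idi1-ps1 alone rose 3.24-fold (log2 1.70, SE 0.313, adjusted p = 0.00519). From ZT8 to ZT16 the summed row fell by 0.67 (SE 0.134, adjusted p = 0.00696) and Idi1 as deposited differed by 0.33 (SE 0.249, adjusted p = 0.4). The summed row also passed the time point test (adjusted p = 0.0263), but not the cosinor (amplitude 0.25, peak at ZT 5.39, adjusted p = 0.0545) or JTK_Cycle (adjusted p = 0.102). Leaving out ZT8 replicate 2 left 0.31 (adjusted p = 0.132) and -0.47 (adjusted p = 0.0578) for the 2 pairs. Leaving out ZT0 replicate 1 ended the call for the first pair (0.48, adjusted p = 0.0668) and leaving out ZT16 replicate 2 that for the second (-0.59, adjusted p = 0.0534). The sum was formed after the values had been seen.

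**Figure D2:**
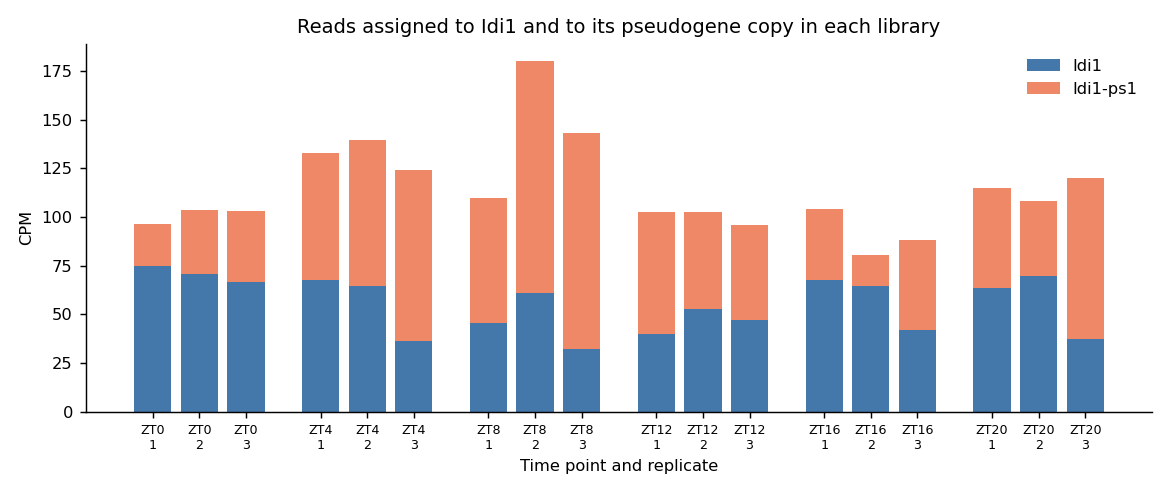
CPM of Idi1 (blue) and of its pseudogene copy Idi1-ps1 (orange, stacked) in each of the 18 immunoprecipitates, by time point and replicate. The copy takes the larger part in all 3 ZT8 libraries (58.7% to 77.6%) and the smaller part in all 3 ZT0 libraries (22.6% to 35.2%).

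Fdps makes farnesyl pyrophosphate, from which sterols, prenylated proteins and dolichol branch off. It lay between 234 and 303 CPM in all 18 libraries, and the 6 time point means lay between 254 and 270 CPM (254 ± 17.4 CPM at ZT0, 259 ± 4.56 CPM at ZT8 and 270 ± 30.3 CPM at ZT16). The time points overlapped throughout, and ZT8 differed from ZT0 by 0.02 on the log2 scale (SE 0.106, 95% interval -0.18 to 0.23, adjusted p = 0.901). Its cosinor amplitude of 0.03 was the smallest of the members. Fdps shared reads with the processed pseudogene Gm3571 in 18 libraries, but that copy took no more than 1.84% of them.

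Fdft1 joins farnesyl units to squalene, the first step that serves sterols alone. Its libraries gave 287, 263 and 273 CPM at ZT0, 285, 287 and 265 CPM at ZT4, 292, 343 and 328 CPM at ZT8, 289, 257 and 314 CPM at ZT12, 310, 273 and 275 CPM at ZT16, and 276, 264 and 298 CPM at ZT20. Every ZT8 library was above every ZT0 and ZT4 library. The difference between ZT8 and ZT0 was 0.23 (SE 0.0954, 95% interval 0.04 to 0.41) with an adjusted p of 0.105. The copy Gm6781 took at most 0.217% of its reads.

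Sqle oxidizes squalene and opens the part of the pathway that needs oxygen. Its means ran from 99.2 ± 9.62 CPM at ZT4 to 115 ± 8.92 CPM at ZT0, with single libraries between 89.9 and 123 CPM. The ZT0 and ZT8 libraries did not overlap, the ZT8 libraries being the lower (97, 104 and 102 against 123, 106 and 117 CPM), but the difference of -0.19 had an adjusted p of 0.239.

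Cyp51 removes a methyl group from lanosterol and was the only member called between time points as deposited. Its libraries gave 115, 135 and 130 CPM at ZT0, 149, 153 and 131 CPM at ZT4, and 133, 191 and 154 CPM at ZT8. They gave 132, 118 and 127 CPM at ZT12, 119, 111 and 118 CPM at ZT16, and 132, 135 and 126 CPM at ZT20. All ZT8 libraries lay above all ZT16 libraries, while the lowest ZT8 library lay below the highest ZT0 library. Cyp51 rose 1.26-fold from ZT0 to ZT8 (log2 0.33, SE 0.113, adjusted p = 0.0485) and fell by 0.46 on the log2 scale from ZT8 to ZT16 (SE 0.114, adjusted p = 0.0121). Both values leaned on ZT8 replicate 2. Without it the first was 0.17 (adjusted p = 0.373) and the second -0.30 (adjusted p = 0.11). The first call was lost in 20 of the 21 fits that left out 1 library or 1 replicate number, and the second in 4. The fits without replicates 2 and 3 and without ZT16 replicate 2 ended it as well, with values of -0.27, -0.49 and -0.43. The cosinor gave an amplitude of 0.17 with a peak at ZT 5.83 (adjusted p = 0.0715), and the time point test an adjusted p of 0.0805. Between ZT0 and ZT8 the summed cholinergic markers went from a mean of 4660 to 4440 CPM and those of oligodendrocytes from 2030 to 1860 CPM. Prph was the largest part of the cholinergic sum (2950 CPM on average) and differed by 0.32 (SE 0.111). Chat, Slc18a3, Ache and Slc5a7 were called lower at ZT8 (-1.74, -0.92, -0.65 and -0.64). Of the 7 cholinergic markers, 2 had a higher level at ZT8, so the sum hides these falls. With the oligodendrocyte score as a covariate the change of Cyp51 was 0.32 (adjusted p = 0.0499), and the part of the cholinergic markers in it was not tested.

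Dhcr7 reduces the last ring double bond on one branch of the late pathway. Its libraries gave 72, 59.2 and 57.4 CPM at ZT0, 52.8, 49.2 and 62.1 CPM at ZT4, 54.5, 33.8 and 50.2 CPM at ZT8, 60.1, 52.3 and 66 CPM at ZT12, 62.2, 56.4 and 38.6 CPM at ZT16, and 62.1, 62.4 and 45.1 CPM at ZT20. All ZT8 libraries lay below all ZT0 libraries. The difference of -0.45 (SE 0.185, 95% interval -0.81 to -0.09) had an adjusted p of 0.0981 and passed without ZT8 replicate 1 (-0.60, adjusted p = 0.0318), but was -0.28 (adjusted p = 0.396) without ZT8 replicate 2. In the library with the highest Cyp51 and Hmgcs1, ZT8 replicate 2, Dhcr7 had its lowest value.

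Over the 15 pairs of time points, Cyp51 was called in 2 pairs, whereas 21.4% of all genes were called in at least 1 pair. From ZT0 to ZT8, 1 member was called higher (8.95% of all genes) and none lower (9.02%). At an unadjusted p below 0.05, 5 members differed, Hmgcs1, Fdft1 and Cyp51 upward and Idi1 and Dhcr7 downward, against 31.6% of all genes. From ZT8 to ZT16, 1 member was called lower (7.8% of all genes) and none higher (9.11%), with 16.9% of all genes called in either direction. No member was called at ZT12 against ZT0, where 0.0321% of all genes were (0.0257% higher), or at ZT16 against ZT4, where 0.0642% were (0.0514% higher). Between ZT20 and ZT8 edgeR called no gene, and DESeq2 called no member and 1114 genes. Without ZT8 replicate 1, edgeR called 2320 genes in this pair, among them Hmgcs1 (-0.35, adjusted p = 0.0416) and Cyp51 (-0.39, adjusted p = 0.0245). 3 members differed in that pair at an unadjusted p below 0.05, against 22.3% of all genes. With the pseudogene copies added, 2 members, Idi1 and Cyp51, were called in each of the first 2 pairs, against the same background of 8.95% higher and 7.8% lower.

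**Figure D3:**
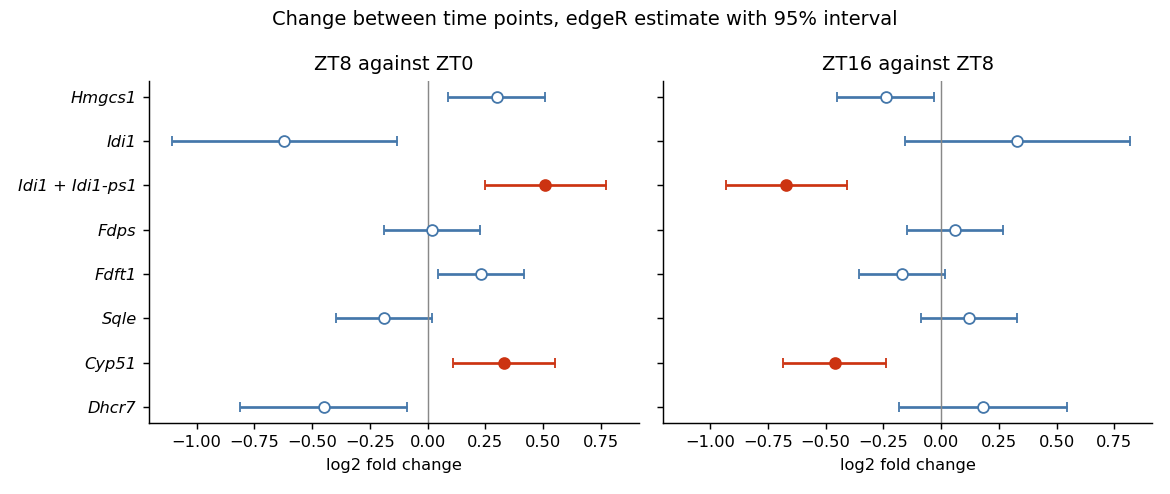
Log2 fold change of each gene (horizontal axis) between ZT8 and ZT0 (left) and between ZT16 and ZT8 (right), with the 95% interval from edgeR. Filled red points passed an adjusted p of 0.05. Cyp51 (0.33 and -0.46) and the sum of Idi1 and Idi1-ps1 (0.51 and -0.67) are the filled points in both panels, and Idi1 as deposited lies on the other side of 0 in each (-0.62 and 0.33).

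Whether the members varied together was asked over the 18 libraries, with 27 relations computed (21 among the members as deposited and 6 with the summed Idi1), two-sided permutation tests of 100000 resamples and Benjamini-Hochberg adjustment over the 27. As deposited, the correlation of log2 CPM between members ran from -0.57 (Hmgcs1 and Dhcr7) to 0.77 (Hmgcs1 and Cyp51) with a median of -0.03, so the 7 did not move as a block. For Hmgcs1 and Cyp51, Pearson's r was 0.77 (permutation p = 0.00036, adjusted 0.00324) and Spearman's rho 0.56 (permutation p = 0.0181, adjusted 0.122). Without the 2 libraries farthest from the median of Hmgcs1, r was 0.68, and within time points it was 0.69. Without ZT8 replicate 2 alone, r was 0.57. Hmgcs1 and Fdft1 had an r of 0.66 (permutation p = 0.00296, adjusted 0.0185) and a rho of 0.52 (permutation p = 0.0295, adjusted 0.159), but r fell to 0.40 without the 2 farthest libraries. Adding the pseudogene reads changed the relation of Idi1 to Cyp51. As deposited r was -0.03 (permutation p = 0.912, Spearman's rho -0.06, permutation p = 0.819), 0.14 without the 2 farthest libraries and 0.38 within time points, and it was 0.92 with the copy (permutation p = 2e-05, adjusted 0.00054). Spearman's rho for the summed row was 0.81 (permutation p = 0.00013, adjusted 0.00351), r within time points was 0.81, and r without the 2 libraries farthest from the median was 0.83. The summed row and Hmgcs1 had an r of 0.80 (permutation p = 7e-05, adjusted 0.000945), a rho of 0.69 (permutation p = 0.00195, adjusted 0.0263), an r of 0.64 without the 2 farthest libraries and of 0.88 within time points. Idi1 as deposited and Sqle had an r of 0.66 (permutation p = 0.00343, adjusted 0.0185) and a rho of 0.60 (permutation p = 0.0093, adjusted 0.0837), with 0.64 without the 2 farthest libraries and 0.58 within time points. With the copy this became -0.32 (permutation p = 0.192, rho -0.34, permutation p = 0.17).

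**Figure D4:**
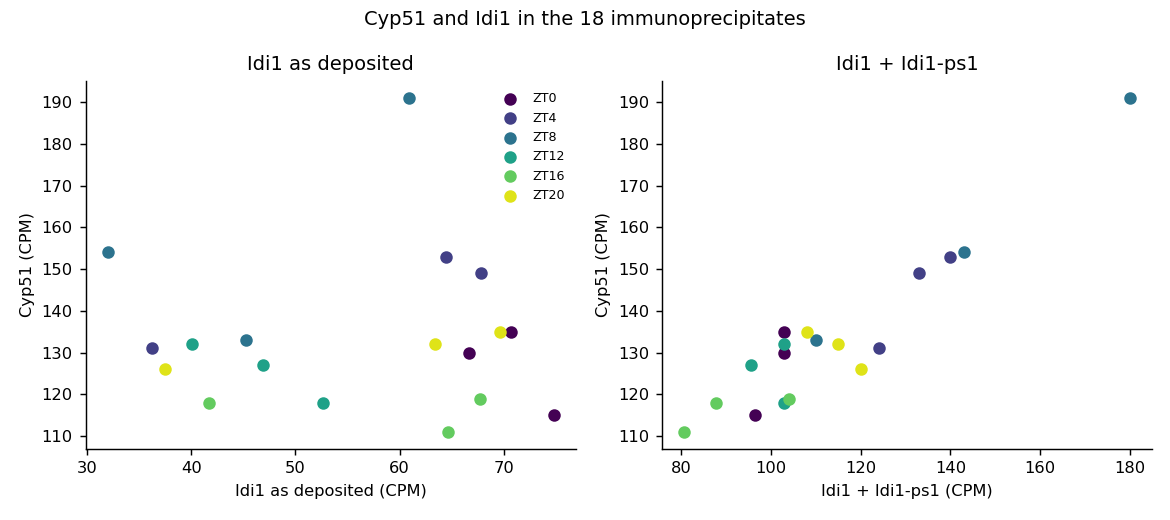
CPM of Cyp51 (vertical axis) against CPM of Idi1 as deposited (left) and of Idi1 with its pseudogene copy (right) in the 18 immunoprecipitates, coloured by time point. Pearson's r of the log2 values is -0.03 on the left and 0.92 on the right, and 0.87 on the right without ZT8 replicate 2, the point at the upper right.

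The level in the immunoprecipitates was then divided by that in the input. With a single input library no test was possible. CPM here comes from a scaling over all 19 libraries, and brackets give exact 95% Poisson intervals of the input, which cover counting error only. Fdps was 3.74-fold higher in the immunoprecipitates (267 ± 20.2 CPM, n = 18) than in the input (71.4 CPM, 67.6 to 75.3) and Fdft1 2.33-fold higher (291 ± 23.4 against 125 CPM, 120 to 130), and each lay above the input in all 18 libraries. These were the 2 members enriched at 2-fold with all libraries on one side, against 13.8% of all genes, and no member was depleted, against 23% of all genes. Sqle was above the input in 18 of 18 libraries as well, but only 1.24-fold (106 ± 9.57 against 85.7 CPM). Cyp51 was above it in 13 libraries (135 ± 18.8 against 126 CPM) and Dhcr7 in 10 (56 ± 9.7 against 55.9 CPM). Hmgcs1 was below it in all but 1 library (364 ± 40.5 against 408 CPM). Idi1 as deposited was below the input in all 18 libraries (56.4 ± 14.3 against 90.5 CPM, log2 ratio -0.68), whereas with the copy it was above in 14 of 18 (115 ± 23.6 against 98.9 CPM, log2 ratio 0.22). The median log2 ratio was 0.11 over the members and -0.08 over all 17901 genes compared. Scaling by library totals lowered the median of all genes to -0.41 and the members with it. Fdps stayed above 2-fold (log2 ratio 1.57), Fdft1 came to 0.89, Sqle to -0.02, Cyp51 to -0.22 and Dhcr7 to -0.33, and Idi1 as deposited passed 2-fold depletion (-1.01).

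**Figure D5:**
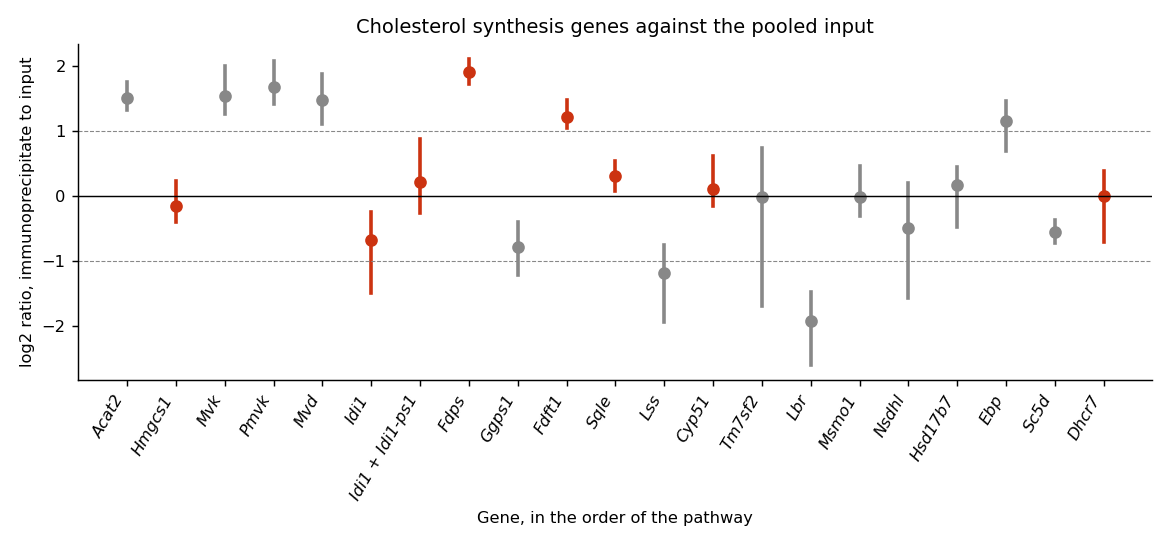
Log2 ratio of the mean CPM of 18 immunoprecipitates to the pooled input (vertical axis) for the 7 members and other genes of cholesterol synthesis in the order of the pathway (horizontal axis). Points are the ratio, bars run from the lowest to the highest immunoprecipitate, red marks the 7 members and the sum of Idi1 and its copy, and dashed lines mark 2-fold. Fdps has the highest point (1.90), Lbr the lowest (-1.92).

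The pathway list held 15 other enzymes of cholesterol synthesis, all tested. None was called by the cosinor (6.24% of all genes) or JTK_Cycle (0.0385%) and 1 by the time point test (6.74%). That gene was Tm7sf2, a sterol reductase, which fell by 1.54 on the log2 scale from ZT0 to ZT8 (SE 0.325, adjusted p = 0.00708) and rose by 1.54 to ZT16 (SE 0.326, adjusted p = 0.00812). In these pairs 2 of the 15 were called lower at ZT8 than at ZT0 (9.02% of all genes) and 3 higher at ZT16 than at ZT8 (9.11%). Beside Tm7sf2, the late enzyme Nsdhl was called in both pairs (-1.06 and 1.09), named after its values were seen. The direction of both was opposite to that of Cyp51 and to the summed Idi1. Against the input, 5 of the 15 were enriched (13.8% of all genes), Acat2, Mvk, Pmvk, Mvd and Ebp. Pmvk, a mevalonate-side kinase, was the highest at 3.21-fold. Lss, which closes the ring of lanosterol, and Lbr, a second sterol reductase that also binds the nuclear lamina, were depleted, 2.28-fold and 3.78-fold lower. Of all genes, 23% were depleted.

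Of 12 genes of uptake and lysosomal release, 11 were tested, of which 3 were called by the cosinor (6.24% of all genes) and 2 by the time point test (6.74%), and 7 in at least 1 pair (21.4%). At ZT8 against ZT0, 1 rose (8.95% of all genes) and 5 fell (9.02%). Stard4, a cytosolic sterol carrier, was the one that rose (log2 0.86, SE 0.172, adjusted p = 0.00593), and it fell by 0.80 to ZT16 (SE 0.173, adjusted p = 0.00823), the same directions as Cyp51. Npc1, which exports cholesterol from lysosomes, fell by 0.59 (SE 0.176, adjusted p = 0.0258) and Lipa, the lysosomal lipase, by 1.21 (SE 0.311, adjusted p = 0.013). Lrpap1, a chaperone of lipoprotein receptors, fell by 0.38 (SE 0.103, adjusted p = 0.0158). Npc1 was also the gene of this list with the lowest ratio to the input (5.55-fold lower, below the input in all 18 libraries). None of the 11 was enriched (13.8% of all genes) and 4 were depleted (23%).

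Of the 9 genes of sterol sensing, all tested, the cosinor called 2, against 6.24% of all genes. Nr1h2, a nuclear receptor for oxysterols, had an amplitude of 0.77 with a peak at ZT 18.7 (adjusted p = 0.0391) and fell by 1.56 from ZT0 to ZT8 (SE 0.303, adjusted p = 0.00574). Mbtps2, the protease that makes the final cut of SREBP, had an amplitude of 0.30 with a peak at ZT 4.52 (adjusted p = 0.0401). Srebf2, which encodes SREBP2, differed by -0.38 at ZT8 against ZT0 (SE 0.14, adjusted p = 0.0655) and Insig1 by -0.21 (SE 0.136, adjusted p = 0.323). Against the input, Nr1h3, a second nuclear receptor for oxysterols, was the highest (3.6-fold, from 54 counts in the input) and Nr1h2 the lowest (1.67-fold lower). Srebf2 and Insig1 had log2 ratios of -0.12 and -0.18.

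Of the 8 genes of efflux, storage and turnover, 7 were tested, none was called by the cosinor (6.24% of all genes) and 2 by the time point test (6.74%). Abcg4, a sterol transporter, fell by 1.94 from ZT0 to ZT8 (SE 0.369, adjusted p = 0.00533) and Apoe, the main apolipoprotein of the brain, by 0.63 (SE 0.149, adjusted p = 0.00962). None of the 8 had a ratio above the input. Osbp was the nearest to it (log2 ratio -0.05), Apoe was 13.7-fold lower and Ch25h was the lowest, with 11 counts in the input. The ratio of Apoe was near those of the glial markers Gfap and Mbp (14.9-fold and 16.3-fold lower). Which cells its reads came from was not tested. Of 8 genes of fatty acid synthesis, the cosinor called 3, against 6.24% of all genes. Acly, which supplies cytosolic acetyl-CoA to both pathways, and Fasn fell from ZT0 to ZT8 by 0.97 (SE 0.2, adjusted p = 0.0064) and 1.17 (SE 0.218, adjusted p = 0.00519), whereas Acsl3, an acyl-CoA synthetase, rose by 0.36 (SE 0.112, adjusted p = 0.0334). Acly was also the highest of these against the input (3.55-fold) and Scd1 the lowest (7.61-fold lower).

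The genes most like the members were sought by Pearson's r, over the 18 immunoprecipitates, to the mean of the centred log2 CPM of the 7. That mean ran from -0.16 in ZT16 replicate 3 to 0.12 in ZT16 replicate 1, so the libraries of ZT16 alone spanned its whole range. Among the 5 highest of 15565 genes were Tnfsfm13 (0.809, at a mean of 2.09 CPM), Magee1 (0.777), Cyp20a1 (0.776) and Aldh1a7 (0.744), and the lowest were Rwdd1 (-0.772), Lgr6 (-0.761) and Gsn (-0.736). This order depended on the Idi1 row. With the pseudogene copies added, the highest were Rab21 (0.855), Slc36a4 (0.817), Cd47 (0.815), Gm15387 (0.801) and Fbxw11 (0.794), and Tnfsfm13 had an r of 0.555 at rank 731.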

How the data were processed

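Ribosome-bound mRNA was measured in 18 immunoprecipitates and 1 pooled input. Per the methods and labels, the authors aligned paired-end reads with STAR 2.7.5 to mm10 and quantified genes with RSEM; the deposited values are expected counts per gene, not normalized. Such counts divide reads shared by near-identical genes between them by a model. Here they were rounded. Genes were filtered with filterByExpr, scaled by TMM and tested in edgeR 4.0.16 (quasi-likelihood F-tests under R 4.3.3: cosinor, any time point, 15 pairs), with Benjamini-Hochberg adjustment over 15572 genes at 0.05. JTK_Cycle was coded anew with periods of 20, 24 and 28 h. Its p was adjusted by Bonferroni over 18 cosine templates within each gene, then by Benjamini-Hochberg over all genes. The study reported a larger share of genes as oscillating by JTK_Cycle. The log2 CPM carried a prior count of 2. A gene was enriched or depleted where the mean differed 2-fold from the input with all 18 libraries on one side. Reads carry no molecular identifiers. The Poisson intervals of the input cover counting error only, whereas the intervals from edgeR include the spread between libraries. The replicates come from separate animals. Steps were tested on simulated data.

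All 7 members were named. Of each other pathway list, the genes called by the cosinor or the time point test were named, with the highest and lowest ratio to the input, and Srebf2 and Insig1. Results of some genes of these lists are not reported here. Members, lists and markers of 8 cell types were chosen with earlier results of these data known. Alternatives covered scaling (DESeq2 1.42.0 size factors, library totals, upper quartile), filters, DESeq2 as the test, a replicate block, an oligodendrocyte score and leaving out libraries. Adding pseudogene reads (Idi1-ps1, Gm3571 and Gm6781) to Idi1, Fdps and Fdft1 was an alternative chosen after seeing the data.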

Additional observations from a re-analysis of the deposited data

How the results depend on the processing

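Adding the pseudogene reads reversed Idi1, from -0.62 to 0.51 at ZT8 against ZT0 and from 0.33 to -0.67 at ZT16 against ZT8, and gave 1 member called by the time point test and 2 in each of those pairs, against 0, 1 and 1 as deposited. The shares of all genes called were 6.74%, 18% and 16.9%, both with these reads added and as deposited. The reversal follows from the reads that the deposited table assigns to Idi1-ps1. JTK_Cycle called 0 members, 1 (Cyp51) with the replicate block (2.29% of all genes) and 2 with adjustment within the gene alone (15.8%). The cosinor called 0, 1 (Idi1) with a filter of 1 count (9.18% of all genes) and 2 with DESeq2 (14.4%). The time point test called 0, 2 (Idi1 and Cyp51) with a filter of 1 count (10.8% of all genes) and 1 with DESeq2 (16.1%). At ZT8 against ZT0 1 member was called (18% of all genes). There were 2 with DESeq2 size factors (18.2%) and 2 with DESeq2 (21.4%), each time Hmgcs1 and Cyp51, both higher. A filter of 1 count gave 2 (12.1% of all genes), Idi1 and Dhcr7, both lower, with Cyp51 lost. With the oligodendrocyte score as a covariate there were 2 (21.3%), Cyp51, higher, and Idi1, lower. Library totals (17.6%) and a filter of 10 counts (12.5%) gave 0. The cause of these differences was not tested. Leaving out 1 library or replicate number gave 0 to 0 members by JTK_Cycle, 0 to 1 by the cosinor, 0 to 1 by the time point test, 0 to 3 at ZT8 against ZT0, 0 to 1 at ZT16 against ZT8 and 0 to 2 at ZT20 against ZT8. The values of 3 (24.9% of all genes) and 2 (14.4%) came without ZT8 replicate 1, which also gave the 1 by the time point test (Cyp51, 15.2%). The 1 by the cosinor was Idi1, without ZT20 replicate 3 (16.6% of all genes) or without replicate 3 (9.76%). Against the input, 2 members were past 2-fold in every scaling and without each replicate number, but with library totals they were Fdps, enriched, and Idi1, depleted. At 1.5-fold there were 3.

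Over all genes, the calls by the cosinor went from 972 to 2349 with a filter of 1 count and 2247 with DESeq2, those by the time point test from 1050 to 2767 and 2502, and those by JTK_Cycle from 6 to 356 with the replicate block. At ZT20 against ZT8 they went from 0 to 1114 with DESeq2, 154 with a filter of 10 counts and 1641 with a filter of 1 count. The shares of all genes called also depended on single libraries. Leaving out 1 gave 2 (without ZT0 replicate 2) to 2668 (ZT20 replicate 3) by the cosinor, 5 (ZT8 replicate 3) to 2454 (ZT8 replicate 1) by the time point test and 0 to 752 (ZT16 replicate 3) by JTK_Cycle. It gave 274 (ZT8 replicate 2) to 4010 (ZT8 replicate 1) at ZT8 against ZT0, 72 (ZT16 replicate 2) to 3885 (ZT8 replicate 1) at ZT16 against ZT8 and 0 to 2320 (ZT8 replicate 1) at ZT20 against ZT8.

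Over all genes together, replicate numbers did not pair the libraries. Deviations of same-numbered libraries correlated between -0.151 and 0.176, with 4 of 45 pairs above 0.1, against -0.21 to 0.183 for other numbers. This check does not cover single genes. Idi1 as deposited was lowest in replicate 3 at ZT0, ZT4, ZT8, ZT16 and ZT20 (66.7, 36.1, 32, 41.7 and 37.5 CPM). At ZT12 replicate 1 was the lowest (40.2 CPM). The share of Idi1-ps1 was highest in the same libraries. A replicate effect on this gene was not tested. With the replicate block, 1 member was again called at ZT8 against ZT0, Idi1 (-0.67, adjusted p = 0.0154) in place of Cyp51, and 1, Cyp51, at ZT16 against ZT8. That fit called 17.7% and 16.6% of all genes in these pairs. The common CV over all genes was 19.2%, with 3 libraries a time point. Within time points the SD on the log2 scale, a measure unlike this CV, was 0.13 for Hmgcs1 and 0.10 for Fdft1. It was 0.13 for Fdps and Cyp51, 0.12 for Sqle, 0.27 for Dhcr7 and 0.39 for Idi1 as deposited. The edgeR changes of Hmgcs1 and Fdft1 at ZT8 against ZT0 were 0.30 (SE 0.107, adjusted p = 0.0568) and 0.23 (SE 0.0954, adjusted p = 0.105).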
